A study of Homo sapiens with 6 samples.

Results

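Genes that mark neurons and neuroendocrine cells were followed in a breast cancer line, MDA-MB-231, under the HDAC inhibitor PCI-24781. The list, chosen by symbol, had 36 genes and holds the transcriptional repressor REST, proteins of synaptic vesicles and secretory granules, neuronal enzymes, growth cone and cytoskeletal proteins, RNA-binding proteins and adhesion molecules. A row with the NCBI Gene ID of the gene was found for 33 of them, among 16623 genes in all. The expression of CPLX2, UCHL1 and GAP43 was not analysed here, while their promoters were searched with those of some other listed genes.

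MDA-MB-231 is a human breast cancer line that lacks estrogen receptor and grows as an adherent, mesenchymal-like culture. Histone deacetylases (HDACs), the target of the inhibitor, remove acetyl groups from histones, and DMSO is the solvent control. Cells were kept for either 24 h or 48 h in DMSO or in PCI-24781 at 100 nM or 200 nM, and RNA from each of these 6 conditions was sequenced as 1 library, named by agent and time (DMSO 24 h, 100 nM 24 h and so on). Since there was 1 library per condition, no difference has a replicate check, and no test was run. The deposited value of a gene is its FPKM, that is, its fragments scaled to transcript length and to all mapped fragments, given to 2 decimals.

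In most cells outside the nervous system, REST binds a DNA element called RE1 near neuronal genes and holds them silent. It does so with the corepressors RCOR1 and SIN3A, which bring HDAC1 and HDAC2 to the gene. Neuroendocrine cells share with neurons the machinery for storing peptides in granules and releasing them, so chromogranins, secretogranins, synaptophysin and neuron-specific enolase serve as markers of both.

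The label of the line was checked against its markers. VIM lay between 1629 and 2053 FPKM and CD44 between 154 and 219 FPKM, and EGFR, AXL and MSN were all above 35 FPKM in every library. ESR1 did not pass 0.04 FPKM, PGR did not pass 0.03 FPKM and CDH1 did not pass 0.39 FPKM. Of the genes listed as low in this line, ERBB2 had between 13.2 and 21.4 FPKM, EPCAM between 2.26 and 4.70 FPKM and FOXA1 between 1.28 and 1.75 FPKM.

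The DMSO libraries were not alike, and this bears on every comparison below. Calls, higher or lower, were made on log2(FPKM + 1) at 2-fold or more, for genes that reached 1 FPKM in at least 1 of the 2 libraries compared. By this rule 286 of 11490 genes (2.49%) were higher and 15 (0.131%) were lower in DMSO 48 h than in DMSO 24 h. The order of the libraries also differed between the times. Of the 521 genes called higher at 200 nM 24 h, 504 (96.7%) had the order DMSO, 100 nM, 200 nM from low to high at 24 h, an order that the choice of genes fixed in part. In the 48 h libraries, which had no part in that choice, 56 of the 521 genes (10.7%) had this order, whereas 419 (80.4%) were lowest in the 100 nM library, with DMSO between 100 nM and 200 nM. Of the 172 genes called lower at 200 nM 24 h, 31 (18%) had the order DMSO, 100 nM, 200 nM from high to low at 48 h and 113 (65.7%) were highest in the 100 nM library, followed by DMSO and 200 nM. Time in culture, a property of 1 of the libraries and an exchange of the DMSO and 100 nM libraries at 48 h cannot be told apart with 1 library per condition. The labels are used here as they stand, and DMSO 48 h and 100 nM 48 h mean the libraries labelled so.

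**Figure D1:**
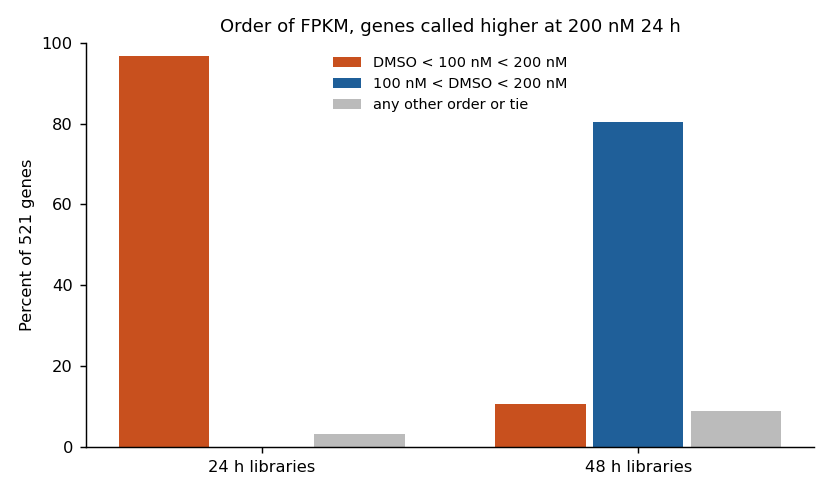
Percent of the 521 genes called higher at 200 nM 24 h that show each order of FPKM among the DMSO, 100 nM and 200 nM libraries, at 24 h and at 48 h. The order DMSO, 100 nM, 200 nM holds for 96.7% of the genes at 24 h and for 10.7% at 48 h, where 80.4% have the 100 nM library lowest and DMSO between.

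Most of the neuronal and neuroendocrine genes were silent or nearly so in all 6 libraries. Of the 33 genes, 18 stayed below 1 FPKM in every library, 11 had at least 1 FPKM in every library, and SYP, CPLX1, SCG2 and MAP2 passed 1 FPKM in some libraries only. For 24 h, the number below 1 FPKM was 22 in DMSO, 19 with 100 nM and 18 with 200 nM, and for 48 h it was 20, 22 and 19. It was thus lowest at 200 nM 24 h and highest in DMSO 24 h and at 100 nM 48 h. In DMSO 24 h, 66.7% of these genes were below 1 FPKM, compared with 33.5% of all genes. The share of all genes was 31.5% with 100 nM and 30.6% with 200 nM for 24 h. For 48 h it was 31.4% in DMSO, 32.2% with 100 nM and 30.3% with 200 nM.

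At 100 nM 24 h, 2 of the 14 genes with sufficient expression were called higher and 0 lower, while 1.35% of all genes were called higher and 0.131% lower. At 200 nM 24 h, 4 of 15 were called higher and 0 lower, against 4.47% and 1.48% of all genes. At 100 nM 48 h, 0 of 13 were called higher and 2 lower, against 0.0608% and 0.408% of all genes. At 200 nM 48 h, 2 of 14 were called higher and 0 lower, against 0.206% and 0.06% of all genes. Between the DMSO libraries, 3 of 13 were called higher at 48 h and 0 lower, against 2.49% and 0.131%. All of these calls came from SYP, SCG2, MAPT and MAP2. A gene that passed the expression limit only through the library where it was high had to differ, so these counts describe the genes and support no more than that.

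The median over all 33 genes is set largely by the 18 low ones, whose change stays near 0 when 1 is added to the FPKM. This median log2 change of FPKM + 1 was 0.03 at 100 nM 24 h and 0.01 at 200 nM 24 h, while it was 0.01 and 0.03 over all 16623 genes. Over the genes with sufficient expression it was 0.34 and 0.45 at 24 h, -0.08 and 0.05 at 48 h (100 nM and 200 nM), and 0.63 between the DMSO libraries. It was thus larger between the DMSO libraries than for either dose, and this choice of genes favors those high in either library. Between the DMSO libraries the median of the 33 was 0.03, against 0.00 over all genes. At 48 h it was 0.00 at both doses, against -0.01 at 100 nM and 0.01 at 200 nM over all genes. The range was wide on 1 side at 200 nM 24 h, from -0.44 for CRMP1 to 3.11 for SCG2. At 100 nM 48 h it reached further down, from -1.19 for SCG2 to 0.11.

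**Figure D2:**
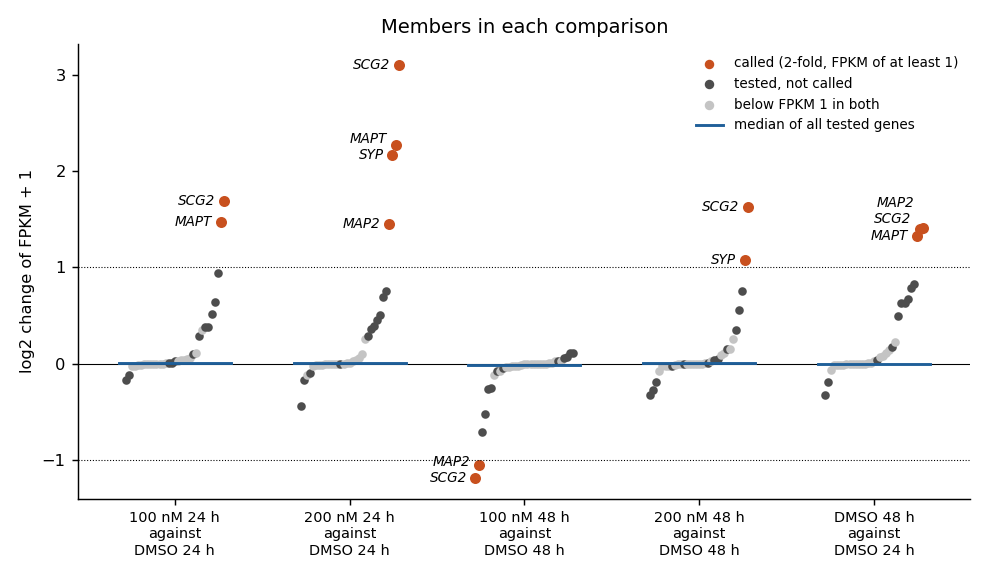
Log2 change of FPKM + 1 for each of the 33 neuronal and neuroendocrine genes (points) in 5 comparisons, with the median of all tested genes as a line and the 2-fold limits dotted. SCG2 lies at 3.11 at 200 nM 24 h and at -1.19 at 100 nM 48 h, and most points lie close to 0 in each comparison.

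REST, the repressor itself (NCBI Gene ID 5978, hg19 chr4:57774042-57802010, + strand), had 7.46, 6.80 and 6.51 FPKM with DMSO, 100 nM and 200 nM for 24 h, and 6.4, 6.0 and 5.48 FPKM with the same for 48 h. It was expressed in every library, highest in DMSO 24 h and lowest at 200 nM 48 h. Its log2 changes for 100 nM and 200 nM were -0.12 and -0.17 (24 h) and -0.08 and -0.19 (48 h), all below 0 and far from the 2-fold limit. At 200 nM the ratio of FPKM to DMSO was 0.873 at 24 h, with a 95% interval from counting error of 0.794 to 0.960, and 0.856 (0.769 to 0.952) at 48 h. At 100 nM it was 0.912 (0.831 to 1.0) at 24 h and 0.938 (0.848 to 1.03) at 48 h. The DMSO libraries differed by as much, with a ratio of 0.858 (0.781 to 0.944) for DMSO 48 h to DMSO 24 h. With DMSO 48 h as the reference, an alternative chosen after seeing the data, the log2 changes at 24 h were 0.08 and 0.02, above 0. The exons of REST overlap those of NOA1 on the opposite strand. The intervals are exact binomial ones on fragment numbers inferred from the FPKM, so they are approximate and leave out variation between cultures.

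Of 19 REST cofactors and regulators, all were found and 17 or 18 had sufficient expression in each comparison. With changes between -0.43 and 0.56, 0 were called, while the share of all genes called did not pass 4.47% in either direction in any comparison, so 0 calls in a list of this size is close to that of all genes. The corepressor RCOR1 lay between 23.1 and 27.7 FPKM and SIN3A between 15.6 and 18.5 FPKM. HDAC1 lay between 65.9 and 74.1 FPKM and HDAC2 between 22.4 and 30.2 FPKM. SRRM4, a splicing factor of neurons that acts on REST, did not pass 0.04 FPKM. RCOR1, SIN3A, HDAC1 and HDAC2 were expressed in each library.

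Among the proteins of synaptic vesicles and the SNARE fusion machinery, SYP differed between libraries. It encodes synaptophysin, a vesicle membrane protein and a common marker of neuroendocrine tumors (NCBI Gene ID 6855, hg19 chrX:49044265-49056661, - strand). SYP had 0.65, 1.58 and 6.4 FPKM with DMSO, 100 nM and 200 nM for 24 h, and 0.73, 0.77 and 2.65 FPKM with the same for 48 h. It was low in both DMSO libraries and at 100 nM 48 h, and highest at 200 nM 24 h. The log2 changes were 0.64 and 2.17 for 100 nM and 200 nM at 24 h, then 0.03 and 1.08 at 48 h, so SYP was called higher at 200 nM at both times. It reached the limit of 1 FPKM through the 200 nM library alone, and neither call is made when both libraries must reach it. At 100 nM 24 h the FPKM ratio was 2.43 (1.56 to 3.90), and SYP is called higher there with 0.1 or 0.01 added in place of 1 or at a 1.5-fold threshold. The FPKM ratio at 200 nM was 9.85 at 24 h (6.72 to 15.0) and 3.63 at 48 h (2.39 to 5.52). Between the DMSO libraries the ratio was 1.12, with an interval of 0.665 to 1.94, and no difference was detectable at this depth. At 24 h, about 29 fragments lay behind the value in DMSO and about 275 behind that at 200 nM. The exons of SYP overlap those of SYP-AS1 on the opposite strand, and use of strand in the counting is not given in the sources used here, so reads of the 2 genes cannot be told apart.

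STX1A and VAMP2, which encode the SNARE proteins syntaxin 1A and VAMP2, are also used outside neurons. STX1A had 13.27, 13.33 and 12.28 FPKM with DMSO, 100 nM and 200 nM for 24 h, and 15.03, 16.31 and 12.28 FPKM with the same for 48 h. VAMP2 had 20.11, 21.59 and 20.12 FPKM in DMSO, 100 nM and 200 nM at 24 h and 28.82, 27.90 and 29.90 FPKM at 48 h. Both were well expressed in every library, and VAMP2 was higher in each 48 h library than in each 24 h library, which was below the 2-fold limit. The exons of STX1A overlap BUD23 on the opposite strand, and those of VAMP2 overlap AC129492.3 on the same strand. CPLX1, which encodes complexin 1, a clamp of SNARE fusion, had 0.25, 0.59 and 1.02 FPKM at 24 h and 0.46, 0.43 and 0.75 FPKM at 48 h, in the order DMSO, 100 nM, 200 nM. It reached 1 FPKM at 200 nM 24 h only, where about 38 fragments stood against about 10 in DMSO, a ratio of 4.08 (1.93 to 8.90) with a log2 change of 0.69. With 0.1 or 0.01 added in place of 1, after rescaling to TPM or at a 1.5-fold threshold, CPLX1 is called higher there. The remaining vesicle genes were low: SNAP25 lay between 0.08 and 0.19 FPKM and SYN1 did not pass 0.10 FPKM.

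SYN1, the gene of synapsin I, and VGF, described below, were the only genes with a close match to RE1 among the listed genes whose promoter was searched. RefSeq windows of 250 bases before to 50 bases after a gene start (assembly GRCh38.p14) were available for 22 of the genes, MAPT and SCG2 not among them, with 40 windows in all. They were searched on both strands for CAGCACC and GGACAG with 2 bases between them, with up to 1 mismatch in the 13 fixed positions. The match of SYN1 has 0 mismatches and lies from -231 to -217 relative to the start (chrX:47620068-47620094 with 6 flanking bases on each side, - strand). The match of VGF has 1 mismatch and overlaps the start, from -6 to 8 (chr7:101165555-101165581, - strand); it reads on the strand opposite to the gene. Both are printed as the element through which REST is known to act, 5′ to 3′ on the strand of the gene, with the bases that match in capitals.
SYN1: cagcttCAGCACCgcGGACAGtgcctt
VGF: cgggcgCTGTCCagcGTGCTGaagccg
Of all 35116 promoter windows, 79 (0.225%) held such a match, and of the 40 windows of the listed genes 2 (5.0%) did. A match is a description of letters, and binding was not measured. SYN1 was nearly silent in all 6 libraries, whereas VGF was expressed in all of them.

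The granins and other proteins of secretory granules include the gene that differed most. SCG2 encodes secretogranin II, a granule protein and precursor of the peptide secretoneurin (NCBI Gene ID 7857, hg19 chr2:224461658-224467217, - strand). SCG2 had 0.19, 2.85 and 9.28 FPKM with DMSO, 100 nM and 200 nM for 24 h, and 2.14, 0.38 and 8.70 FPKM with the same for 48 h. It was highest in the 200 nM libraries of both times and lowest in DMSO 24 h and at 100 nM 48 h. The log2 changes were 1.69 and 3.11 for 100 nM and 200 nM at 24 h, then -1.19 and 1.63 at 48 h, each past the 2-fold limit. Only the call at 200 nM 48 h is kept when both libraries must reach 1 FPKM, and with the mean of both DMSO libraries as the reference the change at 100 nM 24 h was 0.99 and that at 100 nM 48 h -0.49. Between the DMSO libraries SCG2 was called higher at 48 h, with a change of 1.4. The FPKM ratio at 200 nM was 48.8 at 24 h (24.8 to 105) against about 9 fragments in DMSO, and 4.07 at 48 h (3.24 to 5.15) against about 96. At 100 nM it was 15.0 at 24 h (7.43 to 32.5) and 0.178 at 48 h (0.103 to 0.302). The direction of the 100 nM change thus depended on the time, and at 48 h on the DMSO 48 h library: against DMSO 24 h, an alternative chosen after seeing the data, the change at 100 nM 48 h was 0.21 and that at 200 nM 48 h 3.03. With DMSO 48 h as the reference, the changes at 24 h were 0.29 at 100 nM and 1.71 at 200 nM.

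SCG5, which encodes the granule chaperone 7B2, had 1.30, 1.35 and 1.96 FPKM at 24 h and 2.56, 1.17 and 2.94 FPKM at 48 h in DMSO, 100 nM and 200 nM. It was lowest at 100 nM 48 h, and on the log2(FPKM + 1) scale the changes of 0.36 at 200 nM 24 h and -0.71 at 100 nM 48 h stayed within the 2-fold limit. The FPKM ratio at 100 nM 48 h was 0.457 (0.275 to 0.741), and with 0.1 or 0.01 added in place of 1 SCG5 is called lower there (-1.07 and -1.12). VGF, a precursor of several neuropeptides, had 2.0, 2.90 and 3.09 FPKM at 24 h and 3.65, 2.90 and 3.58 FPKM at 48 h. It was lowest in DMSO 24 h, and its changes for 100 nM and 200 nM were 0.38 and 0.45 (24 h), then -0.25 and -0.02 (48 h). The chromogranins were at or near 0: CHGA was listed at 0.03 FPKM at 100 nM 24 h and at 0 in the other 5 libraries, and CHGB at 0.02 FPKM at 200 nM 24 h and at 0 in the other 5. Between the DMSO libraries the FPKM ratio was 1.97 (1.22 to 3.17) for SCG5 and 1.825 (1.41 to 2.39) for VGF. The granule genes thus split into silent chromogranins, low SCG5 and VGF, and SCG2, which differed most between libraries.

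ENO2, neuron-specific enolase of glycolysis, was the most abundant of the listed genes in every library. It had 58.52, 71.85 and 83.55 FPKM with DMSO, 100 nM and 200 nM for 24 h, and 93.88, 101.47 and 119.92 FPKM with the same for 48 h. At each time the order was DMSO, 100 nM, 200 nM from low to high, and each 48 h library was above each 24 h library. The log2 changes for 100 nM and 200 nM were 0.29 and 0.51 (24 h) and 0.11 and 0.35 (48 h), below the 2-fold limit. With DMSO 48 h as the reference, those at 24 h turn below 0, to -0.38 and -0.17. Against DMSO 24 h, ENO2 is called higher at 200 nM 48 h (1.02). The FPKM ratio at 200 nM was 1.43 (1.36 to 1.5) at 24 h and 1.28 (1.22 to 1.33) at 48 h, against about 2538 and 3958 fragments in DMSO, and variation between cultures is unknown.

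The growth cone proteins and stathmins showed no call. GPRIN1, a G protein regulator of neurite growth, had 7.09, 7.16 and 9.60 FPKM at 24 h and 7.32, 5.93 and 7.58 FPKM at 48 h in DMSO, 100 nM and 200 nM. STMN3, a stathmin that destabilizes microtubules, had 6.13, 8.30 and 7.69 FPKM at 24 h and 11.31, 11.53 and 8.78 FPKM at 48 h. CRMP1, which acts in semaphorin signaling, had 2.43, 2.04 and 1.52 FPKM at 24 h and 1.72, 1.86 and 1.72 FPKM at 48 h. GPRIN1 was highest at 200 nM 24 h, with a change of 0.39, STMN3 was higher in each 48 h library than in each 24 h library, and CRMP1 was highest in DMSO 24 h. The change of -0.44 for CRMP1 was the lowest of the 33 genes at 200 nM 24 h, with a ratio of 0.626 (0.465 to 0.829). The exons of GPRIN1 overlap CDHR2, those of CRMP1 overlap EVC and those of SCG5 overlap AC123768.1, each on the opposite strand.

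Of the microtubule-associated proteins and motors, MAPT and MAP2 differed between libraries. MAPT encodes tau, which stabilizes axonal microtubules (NCBI Gene ID 4137, hg19 chr17:43971748-44105700, + strand). MAPT had 1.01, 4.56 and 8.71 FPKM with DMSO, 100 nM and 200 nM for 24 h, and 4.07, 2.53 and 6.47 FPKM with the same for 48 h. It was highest in the 200 nM libraries and lowest in DMSO 24 h, and at 48 h the 100 nM library was below DMSO. It was called higher at 100 nM 24 h (log2 change 1.47) and 200 nM 24 h (2.27), while the changes at 48 h were -0.52 and 0.56. The FPKM ratio at 200 nM was 8.62 at 24 h (7.05 to 10.7) and 1.59 at 48 h (1.4 to 1.81). DMSO 48 h was above DMSO 24 h by 1.33 on the log2 scale, which was also a call. With DMSO 48 h as the reference, both calls at 24 h are lost (0.13 and 0.94). With the mean of both DMSO libraries the change at 100 nM 24 h was 0.80. With that mean, the change at 100 nM 48 h was 0.15, above 0. At 200 nM 48 h, in turn, MAPT is called higher with the mean of both DMSO libraries (1.23), DMSO 24 h (1.89) or 100 nM 48 h (1.08) as the reference. The exons of MAPT overlap MAPT-AS1 on the opposite strand.

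MAP2 encodes the microtubule-associated protein of dendrites (NCBI Gene ID 4133, hg19 chr2:210288771-210598834, + strand). It had 0.11, 1.13 and 2.04 FPKM with DMSO, 100 nM and 200 nM for 24 h, and 1.94, 0.41 and 3.99 FPKM with the same for 48 h. It was highest at 200 nM 48 h and lowest in DMSO 24 h and at 100 nM 48 h. It was called higher at 200 nM 24 h, with a log2 change of 1.45, and lower at 100 nM 48 h, with a change of -1.06. In each of these comparisons 1 of the libraries is below 1 FPKM, so neither call is made when both must reach it, and with the mean of both DMSO libraries the changes were 0.75 and -0.36. Neither 100 nM 24 h (0.94) nor 200 nM 48 h (0.76) reached the limit on this scale, although the FPKM ratios were 10.3 (5.07 to 28.2) and 2.06 (1.66 to 2.58). With 0.1 or 0.01 added in place of 1, after rescaling to TPM or at a 1.5-fold threshold, MAP2 is called higher at 100 nM 24 h, and apart from the rescaling the same holds at 200 nM 48 h. The FPKM ratio at 200 nM 24 h was 18.5 (9.26 to 49.8), against about 7 fragments in DMSO. DMSO 48 h was above DMSO 24 h by 1.41, and with DMSO 48 h as the reference the change of MAP2 at 200 nM 24 h was 0.05. Against DMSO 24 h the change at 100 nM 48 h was 0.35, above 0. At 200 nM 48 h, MAP2 is called higher with the mean of both DMSO libraries as the reference (1.47). It is also called higher there against DMSO 24 h (2.17) and against 100 nM 48 h (1.82).

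The motors KIF5A and KIF1A did not pass 0.02 FPKM in any library.

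For SYP, 250 bases before its start are printed, and for MAP2 those of 1 of 3 starts in the table, since both genes were called. The MAP2 sequence (GRCh38.p14 chr2:209579082-209579331, + strand) and the SYP sequence (chrX:49200194-49200443, - strand) read 5′ to 3′ toward the start. Capitals mark GC boxes, GGGCGG on either strand.
MAP2: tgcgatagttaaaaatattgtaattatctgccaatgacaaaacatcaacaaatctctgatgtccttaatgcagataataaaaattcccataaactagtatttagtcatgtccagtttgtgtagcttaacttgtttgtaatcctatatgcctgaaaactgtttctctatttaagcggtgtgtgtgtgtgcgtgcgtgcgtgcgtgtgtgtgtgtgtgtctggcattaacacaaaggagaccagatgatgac
SYP: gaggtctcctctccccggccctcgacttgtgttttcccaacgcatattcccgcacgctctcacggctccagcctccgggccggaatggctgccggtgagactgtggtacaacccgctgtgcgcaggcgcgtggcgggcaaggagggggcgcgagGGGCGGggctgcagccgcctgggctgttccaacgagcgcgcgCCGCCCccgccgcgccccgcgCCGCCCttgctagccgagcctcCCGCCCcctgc
The SYP sequence holds 4 GC boxes and the MAP2 sequence 0, as do the other windows of MAP2. The 3 MAP2 windows have 40%, 52.3% and 45.3% G and C, the printed one being the lowest, and the SYP window 71.3%. A GC box was present in 45.0% of all promoter windows and in 23 of 40 windows (57.5%) of the listed genes, and neither promoter held a RE1-like match.

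**Figure D3:**
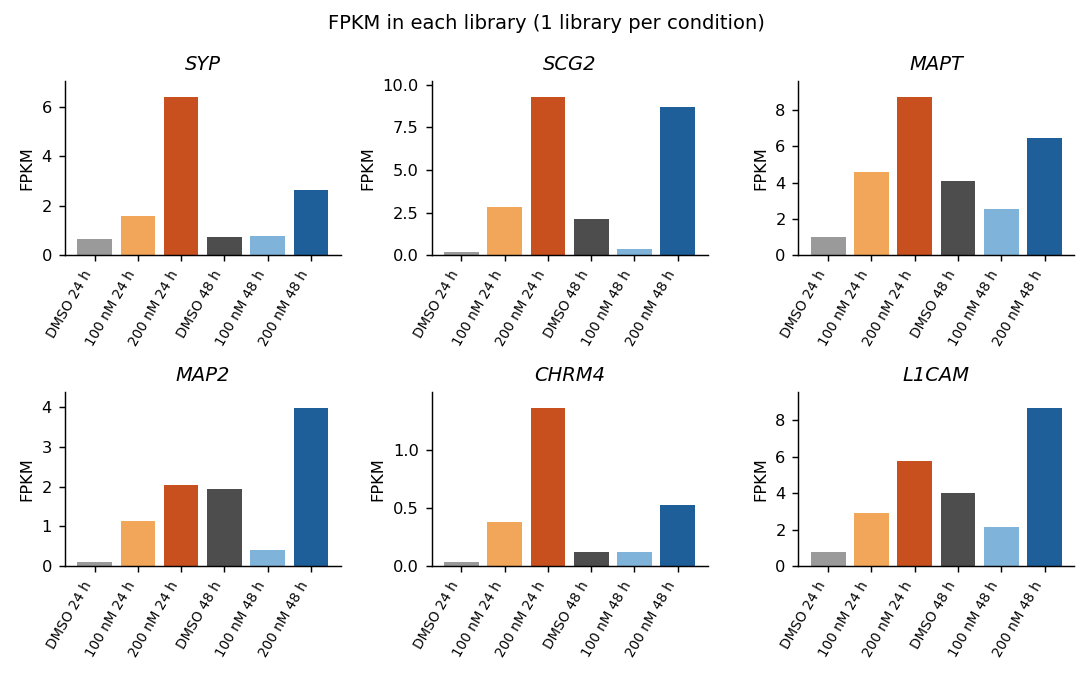
FPKM (bars, linear axes from 0) of SYP, SCG2, MAPT, MAP2, CHRM4 and L1CAM in each of the 6 libraries, with 1 library per condition and therefore no error bar. SYP and CHRM4 are low in both DMSO libraries, at 0.65 and 0.73 FPKM for SYP, whereas for SCG2, MAPT, MAP2 and L1CAM the DMSO 48 h bar stands above both the DMSO 24 h and the 100 nM 48 h bar.

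Among adhesion and membrane proteins, SEZ6L2 was expressed in every library. SEZ6L2, a seizure-related membrane protein, had 9.21, 13.67 and 16.31 FPKM at 24 h and 17.11, 17.92 and 17.28 FPKM at 48 h in DMSO, 100 nM and 200 nM. DMSO 24 h was the low library, and the 3 libraries of 48 h were close to each other. The log2 changes for 100 nM and 200 nM were 0.52 and 0.76 (24 h) and 0.06 and 0.01 (48 h), and 0.83 between the DMSO libraries. NRCAM lay between 0.15 and 0.40 FPKM. NCAM1, the neural cell adhesion molecule used as a neuroendocrine marker, was listed at 0 in 4 libraries and at 0.01 FPKM in DMSO 48 h and at 200 nM 48 h.

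**Figure D4:**
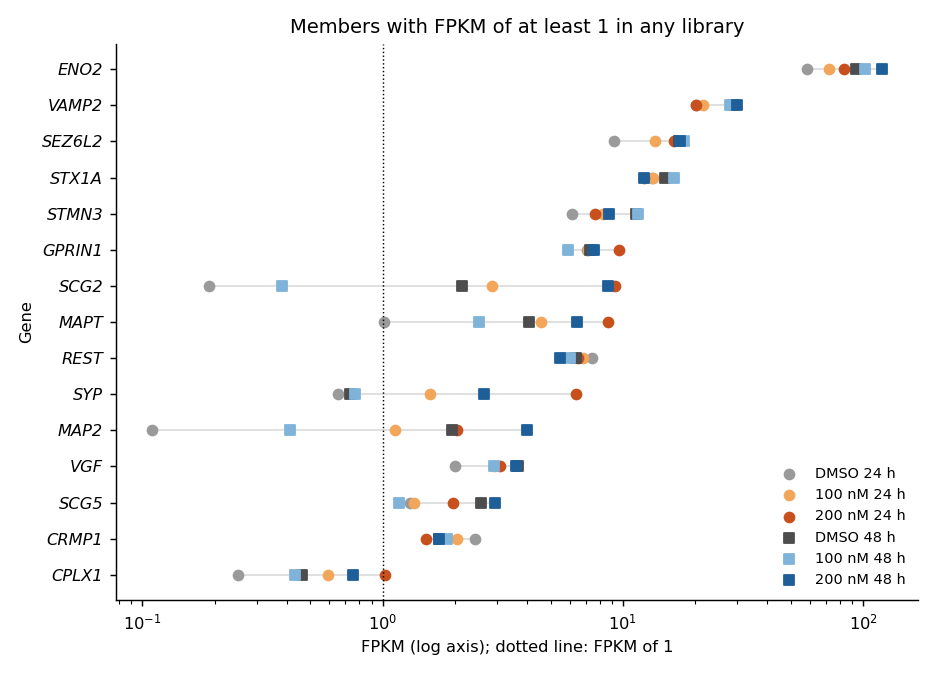
FPKM on a log axis of the 15 genes with at least 1 FPKM in any library, 1 point per library. ENO2 is the highest, from 58.5 to 120 FPKM, and SCG2, MAPT, MAP2 and SYP are spread most widely, from 0.19 to 9.28 FPKM for SCG2.

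The 18 genes below 1 FPKM in every library did not pass 0.40 FPKM, and 15 of them did not pass 0.10 FPKM. Besides those named above they were the stathmins STMN2 and STMN4, the collapsin response mediator DPYSL3, the neurofilament genes NEFL, NEFM and NEFH, the internexin gene INA, the neuronal RNA-binding proteins ELAVL3 and ELAVL4, and the kinase gene CAMK2B. DPYSL3 changed most among them on the log2(FPKM + 0.1) scale, with 0.10, 0.19 and 0.32 FPKM at 24 h and 0.09, 0.06 and 0.16 FPKM at 48 h, a change of 1.07 at 200 nM 24 h. NEFH had 0.01, 0.05 and 0.08 FPKM at 24 h, a change of 0.71 on that scale, and 0.07, 0.09 and 0.05 FPKM at 48 h. For the others the change at 24 h on that scale was at most 0.49 in size. At 48 h, CAMK2B changed by -0.93 at 100 nM on that scale, from 0.09 FPKM in DMSO to 0. SYN1 changed by 0.74 at 200 nM 48 h, and CAMK2B by 0.79 between the DMSO libraries. In 14 of the 18 genes a value of 0 was listed in at least 1 library. At the inferred depth, a 2 kb transcript with 3 fragments has 0.083 to 0.096 FPKM, so differences among most of these values were not detectable. The chromogranins, neurofilaments, ELAVL genes, KIF genes and NCAM1 thus gave next to no signal under any treatment.

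The direction of change was set side by side for the 15 genes with at least 1 FPKM in any library. The comparisons at 24 h and at 48 h share no library. At 200 nM, 12 of the 15 (80.0%) changed in the same direction at both times, against 70.3% of 11893 genes with at least 1 FPKM. At 100 nM, 6 of the 15 (40%) did, against 34.7%, and 8 of the 15 were above DMSO at 24 h and below it at 48 h, as were 4192 of the 11893. At 48 h, 7 of the 15 (46.7%) were lowest at 100 nM with DMSO next and 200 nM highest, against 29.8% of the 11893 genes, and 2 (13.3%) had the order DMSO, 100 nM, 200 nM, against 10.3%. At 24 h, 10 of the 15 (66.7%) had the latter order, against 32.3%. Both sets were chosen by a limit of 1 FPKM in any library. SYP, CPLX1, SCG2 and MAP2 passed it in some libraries only, among them 200 nM 24 h. The choice itself can therefore favor an order with 200 nM highest. These shares were not tested against each other.

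Other known targets of REST were read in the same way. Of 23 such genes, 21 were found and L1CAM and CHRM4 were called. L1CAM, a neural adhesion molecule, had 0.77, 2.92 and 5.80 FPKM at 24 h and 4.0, 2.17 and 8.71 FPKM at 48 h in DMSO, 100 nM and 200 nM. Like SCG2, MAPT and MAP2, it had more in DMSO 48 h than in either DMSO 24 h or 100 nM 48 h. CHRM4, a muscarinic acetylcholine receptor, had 0.03, 0.38 and 1.36 FPKM at 24 h and 0.12, 0.12 and 0.52 FPKM at 48 h. Like SYP, it was low in both DMSO libraries, though about 1 fragment in DMSO 24 h and about 35 at 200 nM 24 h stood behind its values, a ratio of 45.3 with an interval of 6.12 to 1480. Both genes were below 1 FPKM in DMSO 24 h, so their calls against it rest on the library where they were high. In all, 1 of 6 genes with sufficient expression was called higher at 100 nM 24 h (1.35% of all genes), 2 of 7 at 200 nM 24 h (4.47%), 0 of 6 in each 48 h comparison (0.0608% and 0.206%) and 1 of 6 between the DMSO libraries (2.49%), and 0 were called lower in any of the 5.

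Of 14 neural and neuroendocrine transcription factors, 8 were found, 2 had sufficient expression in each comparison and 0 of these were called, too few to set beside the share of all genes (4.47% higher and 1.48% lower at 200 nM 24 h). POU3F2 lay between 1.68 and 2.92 FPKM and FOXA2 between 19.7 and 32.8 FPKM, and the other 6 stayed below 1 FPKM. Of 10 glial markers, 9 were found, 1 or 2 had sufficient expression in each comparison, and 0 of these were called. The most abundant was MBP, at 11.9 to 23.3 FPKM, MOG reached 1.63 FPKM at 200 nM 48 h, and the defining markers GFAP, AQP4 and SOX10 did not pass 0.15 FPKM.

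Genes restricted to other tissues were read beside the neuronal ones. Of 30 genes of liver, striated muscle and testis, 21 were found, 1 or 2 of them had sufficient expression at 24 h, and 1 was called. The called gene was DES, muscle desmin, with 0.27, 1.08 and 2.22 FPKM at 24 h and 1.85, 1.19 and 2.79 FPKM at 48 h, a change of 1.34 at 200 nM 24 h and of 1.17 between the DMSO libraries. It too was below 1 FPKM in DMSO 24 h, and both calls rest on the library where it was high. Of all genes, 4.47% were called higher at 200 nM 24 h and 2.49% between the DMSO libraries. At 200 nM 24 h the median change was 0.26 over the 8 muscle genes found, with 7 above 0, 0.00 over the 7 of liver and -0.01 over the 6 of testis. It was 0.04 over these 21 genes together, 0.01 over the 33 neuronal and neuroendocrine genes and 0.03 over all genes, and the lists were not tested against each other.

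**Figure D5:**
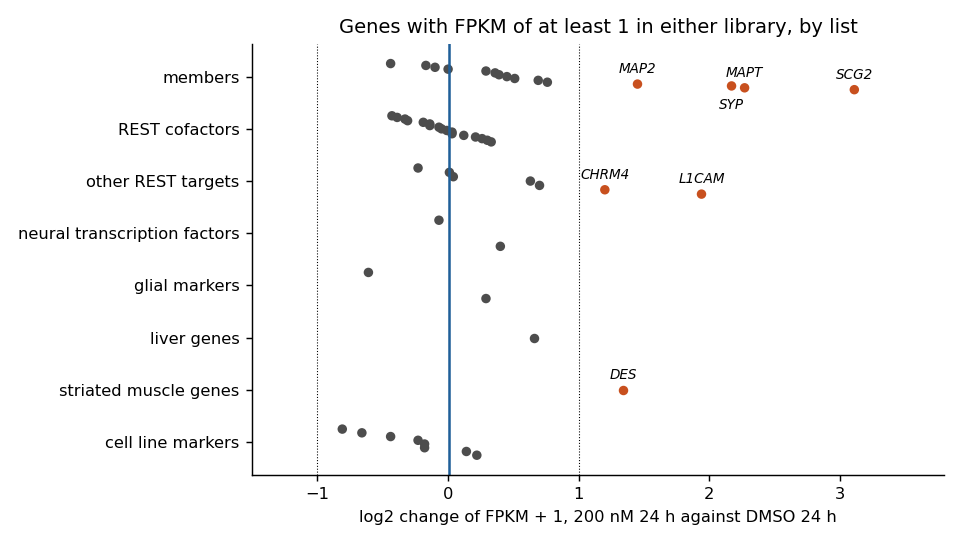
Log2 change of FPKM + 1 at 200 nM 24 h against DMSO 24 h for the genes of each list with at least 1 FPKM in either library (points), with the median of all tested genes as a line and the 2-fold limits dotted. SCG2 (3.11), MAPT (2.27), SYP (2.17), L1CAM (1.94), MAP2 (1.45), DES (1.34) and CHRM4 (1.20) lie past the limit, and no testis gene had sufficient expression.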

How the data were processed

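RNA from 6 libraries of MDA-MB-231 cells was used, 1 per condition. The authors deposited FPKM per gene, and their processing notes name Bowtie2, RSEM and hg19. Symbols were assigned by NCBI Gene ID from the RefSeq table of GRCh38.p14, which held 16585 of 16623 genes. Changes were differences of log2(FPKM + 1), which understates changes of low genes. A call needed a 2-fold change and 1 FPKM in at least 1 of the libraries compared. No test was run. Approximate depth, read from the spacing of low FPKM values in genes with a single transcript of 400 to 1500 bases (GENCODE 29), was 15600000 to 18000000 fragments. Exact binomial (Clopper-Pearson) 95% intervals cover counting error only. The members and lists were chosen with earlier results of these data known. Listed genes with at least 1 FPKM in any library are given in full, and of the others those changed most; from other lists the called genes are named, and others were chosen after their values were seen. The calling rule was also run on simulated data, and no outcome of that run is given here. Alternatives were other pseudocounts, filters, thresholds, scalings (TPM, median-of-ratios factors) and references. Python 3.11.15, numpy 2.4.6, pandas 2.3.3, scipy 1.17.1 and matplotlib 3.10.9 were used.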

Additional observations from a re-analysis of the deposited data

Results flagged for a closer look

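For 3 of the listed genes the change at 100 nM PCI-24781 had opposite directions at 24 h and 48 h, with a call at 1 or both times. SCG2 changed by 1.69 at 24 h and by -1.19 at 48 h on the log2 scale, a difference of -2.88. MAPT changed by 1.47 at 24 h and by -0.52 at 48 h, a difference of -1.99, and MAP2 by 0.94 and -1.06, a difference of -2.00. These differences were not tested, and the pattern is not limited to these genes: 4192 of 11893 genes with at least 1 FPKM in any library were above DMSO at 24 h and below it at 48 h at 100 nM, among them L1CAM (1.15 and -0.66) and AREG (1.96 and -1.13). Both the DMSO and the 100 nM libraries differ between the times. DMSO held 0.19 FPKM at 24 h and 2.14 FPKM at 48 h for SCG2, 1.01 and 4.07 FPKM for MAPT, and 0.11 and 1.94 FPKM for MAP2. At 100 nM the values were 2.85 and 0.38 FPKM for SCG2, 4.56 and 2.53 FPKM for MAPT, and 1.13 and 0.41 FPKM for MAP2. SYP had 0.65 and 0.73 FPKM in DMSO, 1.58 and 0.77 FPKM at 100 nM, and changes of 0.64 and 0.03. With the mean of both DMSO libraries as the reference, the 100 nM changes of MAPT were 0.80 and 0.15, both above 0. Those of SCG2 (0.99 and -0.49) and MAP2 (0.24 and -0.36) kept opposite directions.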

How the results depend on the processing

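Rescaling to TPM or by median-of-ratios factors kept the median of the 33 genes within 0.1 in all 5 comparisons. Their counts of calls stayed within 1.5 times in these comparisons. Removing the filter could change no count, since a 2-fold change of FPKM + 1 already needs at least 1 FPKM in the higher library. The number below FPKM 1 also stayed within 1.5 times in all 6 libraries with a limit of 0.5 and after rescaling to TPM. With a pseudocount of 0.1 the median became 0.14 at 200 nM 24 h and 0.14 between the DMSO libraries, and with 0.01 it became 0.44 and 0.17. Over genes that reached 1 FPKM in at least 1 of the libraries compared it became 0.34 for 100 nM and 0.45 for 200 nM at 24 h, and 0.63 between the DMSO libraries. At 100 nM 24 h, 4 genes were called higher with a pseudocount of 0.1, 4 with 0.01 and 4 at a 1.5-fold threshold (3.34%, 3.64% and 5.54% of all genes), and at that threshold 8 were called between the DMSO libraries (8.49%). When both libraries had to reach 1 FPKM, the number called higher was 1 for 100 nM and 1 for 200 nM at 24 h, 1 for 200 nM at 48 h and 1 between the DMSO libraries, and the number called lower was 0 for 100 nM at 48 h, while 0.902%, 2.95%, 0.141%, 1.82% and 0.26% of all genes were called. SYP at both times and SCG2 and MAP2 at 24 h lose their calls at 200 nM here. With the mean of both DMSO libraries as the reference, 0 were called higher for 100 nM at 24 h, 0 lower for 100 nM at 48 h and 4 higher for 200 nM at 48 h, against 0.19%, 0.0519% and 1.43% of all genes. With this mean, STX1A (-0.08), VAMP2 (-0.15), SCG5 (-0.28), ENO2 (-0.04), GPRIN1 (-0.01) and STMN3 (-0.01) turned below 0 for 100 nM at 24 h. VAMP2 (-0.25) and STMN3 (-0.11) did so for 200 nM at 24 h, and CRMP1 (-0.09) for 100 nM at 48 h. VAMP2 (0.20), CPLX1 (0.08), VGF (0.06) and MAPT (0.15) turned above 0 for 100 nM at 48 h. VGF (0.29) and STMN3 (0.06) turned above 0 for 200 nM at 48 h.

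The following references were chosen after seeing the data. Against the DMSO library of the other time, 0 genes were called higher for 100 nM and 2 for 200 nM at 24 h, and 5 for 200 nM at 48 h, and 0 lower for 100 nM at 48 h, where SCG2 (0.21), MAP2 (0.35), MAPT (0.81), VGF (0.38), VAMP2 (0.45) and CPLX1 (0.19) turned above 0. For 100 nM at 24 h, MAP2 (-0.46), ENO2 (-0.38), STMN3 (-0.40), SEZ6L2 (-0.30), VGF (-0.25), SCG5 (-0.60), VAMP2 (-0.40), STX1A (-0.16) and GPRIN1 (-0.03) turned below 0, and REST (0.08) and CRMP1 (0.16) above it. For 200 nM at 24 h, SCG5 (-0.27), VGF (-0.19), ENO2 (-0.17), STMN3 (-0.50), VAMP2 (-0.50) and SEZ6L2 (-0.07) turned below 0 and REST (0.02) above it. At 48 h, CRMP1 (-0.26) turned below 0 for 100 nM, and VGF (0.61) and STMN3 (0.46) turned above 0 for 200 nM. Of all genes, 0.0606% were then called higher for 100 nM and 0.863% for 200 nM at 24 h, and 4.7% for 200 nM at 48 h. For 100 nM at 48 h, 0.255% of all genes were called lower. The counts of 0 for 100 nM are thus close to the shares of all genes. Against the 100 nM library of the same time, 2 were called higher for 200 nM at 24 h and 4 at 48 h, with 0.343% and 1.71% of all genes. The cause of these changes was not tested. SYP and SCG2 were called higher at 200 nM against both of these references. Rescaling to TPM moved the count of all genes called higher from 155 to 332 and from 521 to 855 at 24 h, from 7 to 21 and from 24 to 81 (0.64%) at 48 h, and from 286 to 492 between the DMSO libraries, and that called lower for 100 nM at 48 h from 47 to 88. Of the single changes of the 15 expressed genes, 285 were labelled unmoved under settings other than these references and 75 moved. These labels do not follow the intervals of FPKM ratios printed above. With 0.1 added in place of 1, SYP at 100 nM 24 h (1.16) was labelled moved, although it lies inside its ratio interval. No analysis with time as a block was run. Without replicates, variation between cultures is unknown.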

Other observations

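Of all genes, 18 were called higher at 200 nM at both times, and SYP and SCG2 were the neuronal and neuroendocrine genes among them. In 10 of the 18, DMSO 48 h was at least 2-fold above DMSO 24 h on the log2(FPKM + 1) scale, as for SCG2. CPA4, a carboxypeptidase, had 3.96, 22.12 and 72.02 FPKM at 24 h and 14.22, 7.0 and 39.60 FPKM at 48 h in DMSO, 100 nM and 200 nM. AREG, the gene of the growth factor amphiregulin, had 1.69, 9.50 and 18.75 FPKM at 24 h and 8.66, 3.42 and 23.40 FPKM at 48 h. In both genes, as in SCG2, 100 nM was the lowest library at 48 h and 200 nM the highest. In 2 of the 18, SYP and CYP1A1, the DMSO libraries differed by less than 0.25 on the log2 scale. CYP1A1, a xenobiotic-metabolizing enzyme, had 4.5, 17.10 and 34.70 FPKM at 24 h and 3.89, 4.38 and 10.15 FPKM at 48 h, so that 200 nM was the high library at both times and 100 nM 48 h lay near DMSO. Of the 521 genes called higher at 200 nM 24 h, 47 had DMSO libraries within that limit. On the log2(FPKM + 1) scale, 169 of the 521 had DMSO 48 h at least 2-fold above DMSO 24 h. The same held for 286 of all 11490 genes with sufficient expression (2.49%). However, the 521 and the 18 were themselves called against DMSO 24 h. A low value in that 1 library raises both the change at 200 nM 24 h and the change between the DMSO libraries. The choice of genes thus sets these counts in part, and they were not tested against the share of all genes. The genes named here were chosen after their values were seen.

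Genes with a RE1-like match were also followed as a group. Of 42 such genes with a value, 19 (45.2%) stayed below 1 FPKM in every library, against 4730 of all 16623 genes (28.5%). Of the 21 with sufficient expression at 200 nM 24 h, 1 was called higher and 1 lower, against 4.47% and 1.48% of all genes, so the number called higher is near that of all genes. The first was LIPA, lysosomal acid lipase, with 38.04, 61.36 and 104.90 FPKM at 24 h and 63.98, 52.26 and 94.58 FPKM at 48 h. The other was STS, steroid sulfatase, with 5.28, 2.57 and 2.06 FPKM at 24 h and 3.90, 4.70 and 4.38 FPKM at 48 h. The median change of the 42 genes at 200 nM 24 h was 0.06, against 0.03 over all genes.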
